A study of Mus musculus with 8 samples.

Results

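The replication-dependent histone genes are the 69 genes, of 55536 genes in the authors' deposited comparison, whose symbols carry the older mouse histone names Hist1h, Hist2h, Hist3h or Hist4h without a pseudogene suffix. They were chosen by name alone and comprise 6 linker histone H1 genes, 20 H2A, 18 H2B, 12 H3 and 13 H4 genes. By name 56 belong to cluster 1, 10 to cluster 2, 2 to cluster 3 and 1 to cluster 4. RNA was sequenced from livers of lean wild-type C57BL/6 mice aged 2 months, 1 week after injection of 0.1 OD of adenovirus and after an overnight fast. The knockdown group, 4 samples, received a hairpin against Eif4ebp3, which encodes a repressor of cap-dependent translation. The control group, 4 samples, received a hairpin against lacZ, a bacterial gene that mice lack, so both groups carried an adenovirus. The injection route and the cell types that the virus reached are not given in the labels. Ribosomal RNA was removed from total RNA per the labels, which do not mention selection for poly(A) tails.

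Core histones H2A, H2B, H3 and H4 form the protein spool of the nucleosome, and H1 binds the linker DNA between spools. Cells make most of the replication-dependent histones during S phase, from clustered genes whose messenger RNAs usually end in a conserved stem-loop in place of a poly(A) tail. The stem-loop binding protein holds that structure during processing, translation and decay, and some of these genes are also known to give polyadenylated transcripts in cells that do not divide. Most hepatocytes of the adult liver are outside the cell cycle.

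The 3′ stem-loops are shown first because they are the element that the family shares. In GENCODE M21 transcripts on the GRCm38 (mm10) build, the first 100 bases after the stop codon were searched for a stem of 6 base pairs starting GG around a loop of 4 bases starting TT, with 1 stem mismatch allowed. All coding transcripts of a member were searched. Other genes were searched in the longest coding transcript only, where at least 16 bases followed its stop codon. The pattern was present in 44 members, starting 21 to 58 bases after the stop codon and with 0 mismatches, against 26 of 20431 other coding genes (0.127%). Of the rest, 15 coding members are annotated with fewer than 16 bases after the stop codon and 2 members, Hist1h2aj and Hist1h2al, are annotated pseudogenes. The 44 are among 52 members annotated with 16 or more bases there. The others of these 52, without the pattern, are Hist1h1a, Hist1h2bc, Hist1h2bq, Hist1h2br, Hist1h3g, Hist1h4a, Hist2h2be and Hist2h3b. Absence from this window says only that these letters were not in it. Capitals mark the paired stem and lower case the loop, and the forms differ between H4 genes and the other types.
Commonest form, 26 members of H1, H2A, H2B and H3, among them Hist1h1c, Hist2h2aa1, Hist2h2aa2 and Hist2h3c2: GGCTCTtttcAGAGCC
Loop ending in A, 6 members of H1, H2B and H3: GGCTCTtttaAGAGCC
Loop of T alone, Hist2h2ac: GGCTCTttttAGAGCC
H4 form, 7 members, among them Hist1h4m and Hist1h4h: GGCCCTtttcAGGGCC
H4 form with a loop of T alone, Hist1h4i and Hist2h4: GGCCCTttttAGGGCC
H4 form with a different stem, Hist1h4b and Hist1h4j: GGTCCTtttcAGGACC
The 11 H4 members with a stem-loop had the last 3 forms, and no H1, H2A, H2B or H3 member had them.

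Promoters of 62 members were matched in RefSeq (GRCm38.p6), and the 250 bases before each annotated start were searched on both strands for 4 short motifs. The letters CCAAT, the core of the element bound by NF-Y, were found in 51 of 62 members, against 33.8% of 32851 promoters. They occurred in 6 of 6 H1, 18 of 18 H2A, 16 of 16 H2B and 8 of 10 H3 promoters, but in 3 of 12 H4 promoters. The octamer ATTTGCAT, known as a target of the POU factor Oct-1, was found in 7 of 18 H2A and 6 of 16 H2B promoters and in 0 of the H1, H3 and H4 promoters, against 1.6% of all promoters. The letters TATAAA occurred in 29 members against 12.4% of all promoters, and GCGCGAAA, an E2F-type sequence, in 7 members against 0.256%. Windows of neighbouring H2A and H2B genes on opposite strands can overlap, so the same site can be counted for both genes. Hist1h2aa and Hist1h2ba share an octamer in this way, and Hist1h2ag and Hist1h2bj share a GCGCGAAA. The counts are therefore of promoters and not of separate sites. The 4 promoters printed belong to genes that the results turn on. They are the most abundant H1 gene, the tested H2A gene of cluster 2 on the plus strand, the H3 gene that was higher in the knockdown, and the most abundant H4 gene. Capitals mark matches to these motifs on either strand, so that CCAAT on the minus strand reads ATTGG, and a match is a description of letters and not of binding.
Hist1h1c, chr13:23738557-23738806, plus strand: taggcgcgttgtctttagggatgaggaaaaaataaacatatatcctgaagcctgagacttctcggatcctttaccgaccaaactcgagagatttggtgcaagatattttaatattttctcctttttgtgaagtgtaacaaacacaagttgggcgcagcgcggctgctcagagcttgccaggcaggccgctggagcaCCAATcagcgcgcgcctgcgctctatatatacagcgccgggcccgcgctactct
Hist2h2aa1, chr3:96245247-96245496, plus strand: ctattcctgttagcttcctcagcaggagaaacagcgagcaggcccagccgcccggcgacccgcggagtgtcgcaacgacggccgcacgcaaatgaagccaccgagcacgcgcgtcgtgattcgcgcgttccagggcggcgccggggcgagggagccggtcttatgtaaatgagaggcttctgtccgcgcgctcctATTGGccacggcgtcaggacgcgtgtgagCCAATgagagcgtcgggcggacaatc
Hist1h3g, chr13:23535168-23535417, plus strand: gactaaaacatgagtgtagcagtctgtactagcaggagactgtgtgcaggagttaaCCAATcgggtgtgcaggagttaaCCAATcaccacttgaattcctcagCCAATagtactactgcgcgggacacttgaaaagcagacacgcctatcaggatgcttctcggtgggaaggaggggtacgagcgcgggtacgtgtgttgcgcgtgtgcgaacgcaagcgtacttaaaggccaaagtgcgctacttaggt
Hist1h4m, chr13:21811496-21811745, plus strand: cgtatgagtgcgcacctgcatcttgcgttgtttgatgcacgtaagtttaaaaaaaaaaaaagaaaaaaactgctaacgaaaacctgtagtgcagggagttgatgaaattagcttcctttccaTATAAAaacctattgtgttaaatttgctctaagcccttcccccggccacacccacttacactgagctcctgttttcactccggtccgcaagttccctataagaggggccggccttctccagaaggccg
In these windows Hist1h1c held CCAAT 1 time, Hist2h2aa1 2 times and Hist1h3g 3 times, while Hist1h4m held TATAAA and no CCAAT.

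Each library held 24189202 to 32073994 counts in annotated genes. Eif4ebp3 itself was at 9.62, 13.9, 37.2 and 19.5 CPM (counts scaled to a common library size) in the knockdown samples, against 289.5, 215.6, 204 and 49.3 CPM in the control samples. Its log2 fold change was -3.24 ± 0.53 (SE, edgeR adjusted p = 0.000379), and control replicate 4 was the lowest control. Nothing in the labels says that the samples of a group came from separate animals, so p-values measure only the spread between these samples. Levels here are CPM normalised with TMM factors unless stated otherwise. Without those factors (total-count scaling) the median log2 fold change over the 15375 genes tested shifted by 0.57, and a change between scalings of that size is a property of the whole table. In bulk liver, fewer cells of a type and less RNA per cell cannot be told apart.

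The 69 genes together were lower in the knockdown livers. Their summed level was 211.5, 223.5, 256.8 and 239 CPM in the knockdown samples, against 469, 439, 428.7 and 437 CPM in the control samples, a log2 ratio of -0.93. Every knockdown sample lay below every control sample. As a share of all counts, which uses no normalisation factor, the family took 0.0267 to 0.0294% in the knockdown samples and 0.0344 to 0.0389% in the control samples, again without overlap. Counts above 0 were found for 46 to 53 members in a knockdown sample and 45 to 54 in a control sample.

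Of the 69 members, 26 passed the filter on low counts, and of these 13 fell, 1 rose and 12 did not pass the test at an adjusted p of 0.05 (edgeR quasi-likelihood test, Benjamini-Hochberg over all genes). Across the genes tested 27.8% fell and 29.5% rose. The median log2 fold change of the 26 was -0.60, beside -0.00 for all genes tested, and it describes only the members that passed. With total-count scaling 9 members were called lower and 3 higher, where 7.72% of all genes tested were called lower and 63.9% higher. Among the 26, the samples of the groups did not overlap for 12 members that were lower and 2 that were higher in the knockdown, where 52.1% of all genes tested had no overlap in either direction. The authors' deposited table marks 13 members down and 3 up, where 2.17% of all genes are marked down and 4.6% up. Its 13 are not the same set. Hist1h2bc, Hist1h4i and Hist2h2be are unmarked there, while Hist1h3f, Hist1h4c and Hist4h4, under the filter here, are marked down. Hist1h2bc, at -0.52 on the log2 scale there, is unmarked although its adjusted p there is under 0.05. The mark therefore asks for more than that threshold. Of the 43 members under the filter, 8 had 0 counts in every sample, and 3 counts correspond to 0.0770 to 0.154 CPM per library. The 8 are Hist1h1t, Hist1h2aa, Hist1h2aj, Hist1h2al, Hist1h2ba, Hist1h2bl, Hist2h2ab and Hist2h2bb, of which Hist1h1t, Hist1h2aa and Hist1h2ba are known as testis histones.

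**Figure D1:**
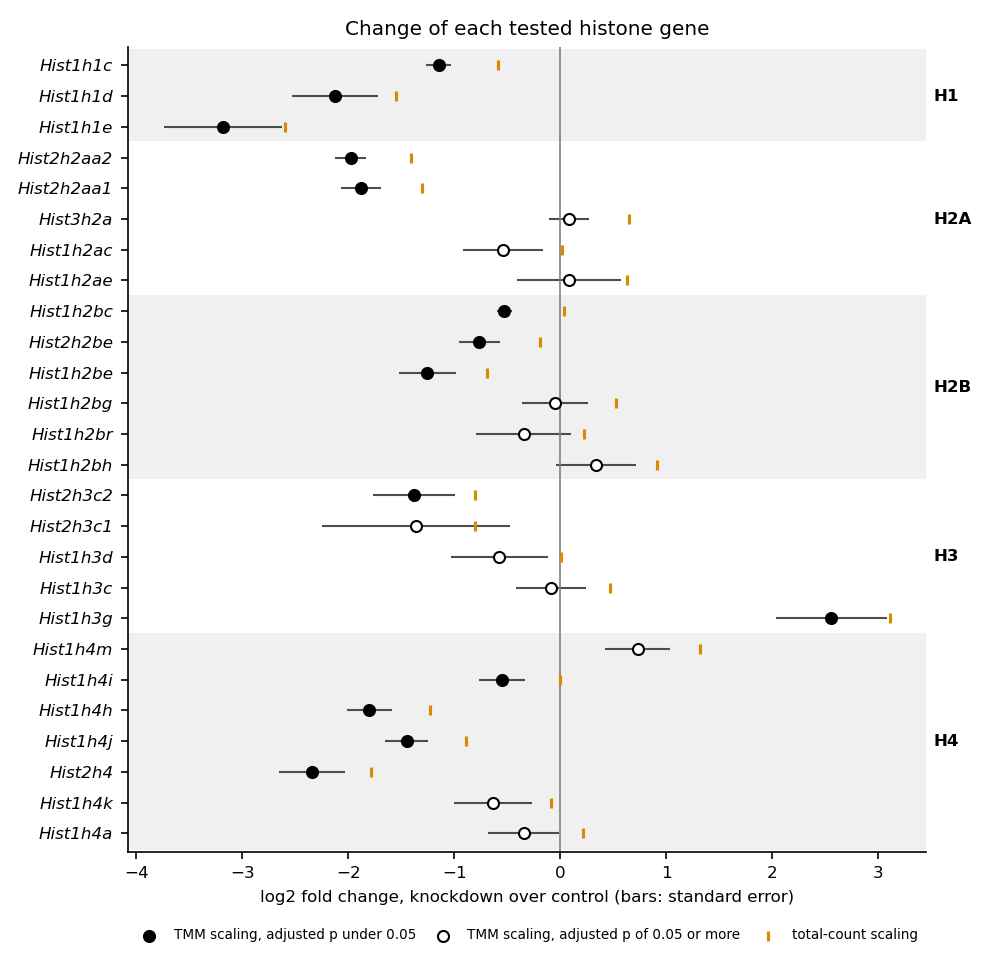
Log2 fold change of knockdown over control for the 26 tested histone genes, grouped by type and ordered by level within a type; points with bars are TMM-scaled estimates with standard errors (filled, adjusted p under 0.05) and orange ticks are the estimates with total-count scaling. All 3 H1 genes lie left of 0 under both scalings, Hist1h3g lies at 2.56, and Hist1h2bc and Hist1h4i lie left of 0 with TMM factors but at 0.039 and 0.0018 with total-count scaling.

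Sums by histone type were lower in the knockdown for all 5 types with TMM factors, by unequal amounts. H2A summed to 31.0 ± 5.23 CPM in the knockdown and 93.7 ± 8.01 CPM in the control (SD, n = 4 each), a log2 ratio of -1.60. H1 summed to 78.3 ± 12.4 CPM in the knockdown and 176 ± 12.5 CPM in the control, a log2 ratio of -1.17. H3 stood at 4.50 ± 1.37 CPM in the knockdown and 8.38 ± 1.70 CPM in the control, a log2 ratio of -0.90. These 3 types kept their sign with total-count scaling, at -1.03, -0.61 and -0.33. H2B summed to 93.3 ± 5.93 CPM in the knockdown and 134.5 ± 8.05 CPM in the control, a log2 ratio of -0.53 that turned to 0.04 with total-count scaling. H4 summed to 25.7 ± 1.29 CPM in the knockdown and 30.5 ± 1.32 CPM in the control, a log2 ratio of -0.25 that turned to 0.32 with total-count scaling. Most of this RNA came from few genes: Hist1h1c, Hist1h2bc and Hist2h2aa2 made up 78.5% of the summed CPM in the knockdown and 82.8% in the control.

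**Figure D2:**
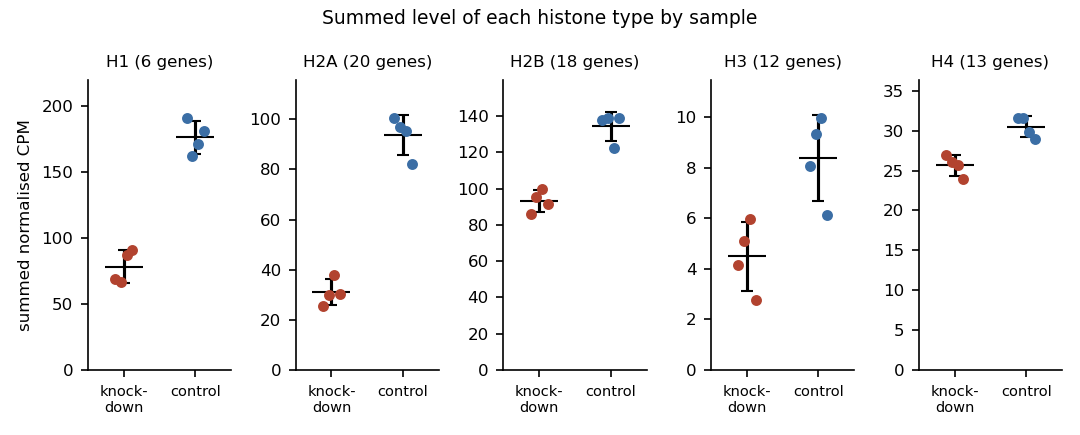
Summed normalised CPM of the genes of each histone type, 1 point per sample with the group mean and SD, and with a separate vertical axis from 0 for each type. With TMM factors no knockdown sample reaches a control sample in any type, H1 standing at 66.6 to 90.9 CPM in the knockdown and 162 to 191 CPM in the control; the H2B and H4 ratios change sign with total-count scaling.

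All 3 tested linker histone genes fell, under TMM and under total-count scaling. Hist1h1c, which encodes an H1 subtype made in most tissues, lies on 1 exon at chr13:23738808-23740367. It was at 67.2, 65.4, 85.3 and 89.7 CPM in the knockdown samples, against 184, 152, 168 and 178 CPM in the control samples. All knockdown values were below all control values, with a log2 fold change of -1.15 ± 0.12 (SE, edgeR adjusted p = 1.39e-05) and of -0.58 with total-count scaling (adjusted p = 0.000688). Hist1h1c supplied 98.2% of the H1 sum in the knockdown and 96.5% in the control.

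Hist1h1d and Hist1h1e were far less abundant and had larger fold changes. Hist1h1d, another H1 subtype (chr13:23553262-23560686), was at 0.884, 0.843, 1.20 and 0.872 CPM in the knockdown samples, against 4.13, 7.95, 2.32 and 2.15 CPM in the control samples. The groups did not overlap, and control replicates 1 and 2 were the highest (log2 fold change -2.12 ± 0.41, edgeR adjusted p = 0.00107). Hist1h1e (chr13:23620629-23622558, minus strand) was at 0.379, 0.116, 0.138 and 0.0513 CPM in the knockdown samples, against 2.02, 2.38, 1.08 and 0.685 CPM in the control samples. Its log2 fold change was -3.18 ± 0.56 (edgeR adjusted p = 0.000606) and -3.91 without knockdown replicate 1, the highest knockdown sample. Hist1h1e shares exon sequence on the same strand with the long transcript of Hist1h2be, and 8 of its 8 deposited values are not whole, so its split from that gene is uncertain. Hist1h1a and Hist1h1b stayed under the filter, Hist1h1a with 11 counts in all knockdown and 8 in all control samples and Hist1h1b with 30 and 30.

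Of 5 tested H2A genes 2 fell, both in cluster 2. Hist2h2aa2 (chr3:96239749-96240276, minus strand) was at 14.3, 15.3, 23.7 and 18.3 CPM in the knockdown samples, against 75.3, 69.6, 73.3 and 62.9 CPM in the control samples. Hist2h2aa1 (chr3:96245497-96246082, plus strand) was at 3.22, 4.51, 3.40 and 4.87 CPM in the knockdown samples, against 16.8, 17.2, 14.5 and 10.8 CPM in the control samples. The groups were well apart for both, with log2 fold changes of -1.98 ± 0.15 (edgeR adjusted p = 1.88e-06) and -1.88 ± 0.19 (edgeR adjusted p = 1.19e-05), and of -1.41 and -1.30 with total-count scaling. Their coding sequences are identical, they encode the same H2A protein of 130 residues, and all 8 values of each are estimates that are not whole, so their sum is the firmer quantity. That sum was 17.5, 19.8, 27.1 and 23.1 CPM in the knockdown samples, against 92.0, 86.8, 87.8 and 73.7 CPM in the control samples.

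Both genes overlap unnamed transcripts at this locus. Gm20634, on the strand of Hist2h2aa1, had 163, 141, 202 and 194 counts in the knockdown samples, against 748, 629, 507 and 565 counts in the control samples (log2 fold change -2.47, edgeR adjusted p = 1.13e-06). Gm20632, on the strand opposite Hist2h2aa2, had 69, 68, 42 and 123 counts in the knockdown samples, against 125, 90, 91 and 155 counts in the control samples (log2 fold change -1.32, edgeR adjusted p = 0.00111). Gm20633, on the strand opposite Hist2h2aa1, had 35, 41, 17 and 74 counts in the knockdown samples, against 35, 36, 31 and 83 counts in the control samples, and did not pass the test (log2 fold change -0.86, edgeR adjusted p = 0.0791). The first 2 of these neighbours fell as well, and the strandedness of the counting is not stated in the labels, so reads of the overlapping stretches cannot be told apart.

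The other tested H2A genes did not pass the test. Hist3h2a, the H2A gene of cluster 3 (chr11:58954685-58956830, plus strand), was at 6.25, 7.996, 8.87 and 5.36 CPM in the knockdown samples, against 7.204, 8.18, 6.07 and 5.39 CPM in the control samples. The groups overlapped fully, with a log2 fold change of 0.08 ± 0.19 (edgeR adjusted p = 0.735), and total-count scaling gave 0.65 (adjusted p = 0.00757). Its exon overlaps Trim17 on the same strand, a gene with at most 19 counts in a sample. Hist1h2ac had a log2 fold change of -0.54 ± 0.38 and Hist1h2ae of 0.08 ± 0.49, with overlapping groups. The 15 H2A genes of cluster 1 summed to 1.98 ± 0.246 CPM in the knockdown and 1.94 ± 0.846 CPM in the control. Cluster 2 thus held most RNA of this family's H2A genes in both groups.

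The make-up of the H2A pool can be read within a sample, where scaling drops out. Hist2h2aa1 and Hist2h2aa2 together made up 68.7, 65.9, 71.0 and 76.3% of the H2A sum in the knockdown samples, against 91.5, 89.5, 92.3 and 89.7% in the control samples. Relative to Hist1h2bc, the main H2B gene, their sum was 0.216, 0.221, 0.287 and 0.267 in the knockdown samples, against 0.712, 0.671, 0.756 and 0.561 in the control samples. Neither measure overlapped between groups. The ratio of Hist1h1c to Hist1h2bc was 0.8285, 0.730, 0.904 and 1.04 in the knockdown samples, against 1.43, 1.17, 1.44 and 1.35 in the control samples, also without overlap.

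H2B RNA came almost wholly from Hist1h2bc (chr13:23684199-23692908, plus strand, 2 exons in its longest transcript), which supplied 94.2% of the H2B sum in the knockdown and 94.1% in the control. It was at 81.1, 89.6, 94.3 and 86.6 CPM in the knockdown samples, against 129, 129, 116 and 131 CPM in the control samples. The groups did not overlap, and the log2 fold change was -0.53 ± 0.07 (edgeR adjusted p = 0.000144). With total-count scaling it was 0.04 (adjusted p = 0.680), so its fall rests on the normalisation factors. Its coding sequence is 99.5% identical to those of Hist1h2bq and Hist1h2br, and 8 of its 8 values are not whole. Its longest transcript has 742 annotated bases after the stop codon and no stem-loop pattern in the first 100 of them.

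Hist2h2be, the H2B gene of cluster 2 (chr3:96221119-96223738), was at 1.99, 2.94, 2.75 and 2.28 CPM in the knockdown samples, against 4.75, 4.67, 3.24 and 4.20 CPM in the control samples. Every knockdown value was below every control value (log2 fold change -0.76 ± 0.19, edgeR adjusted p = 0.00574), and the call was lost with total-count scaling (-0.20, adjusted p = 0.388). Hist1h2be had a log2 fold change of -1.25 ± 0.27 (edgeR adjusted p = 0.00230) and -0.69 with total-count scaling (adjusted p = 0.0428). Hist1h2bg, Hist1h2bh and Hist1h2br, at means of 0.431 to 0.770 CPM, had log2 fold changes of -0.05 ± 0.31, 0.33 ± 0.38 and -0.35 ± 0.45 and did not pass the test.

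**Figure D3:**
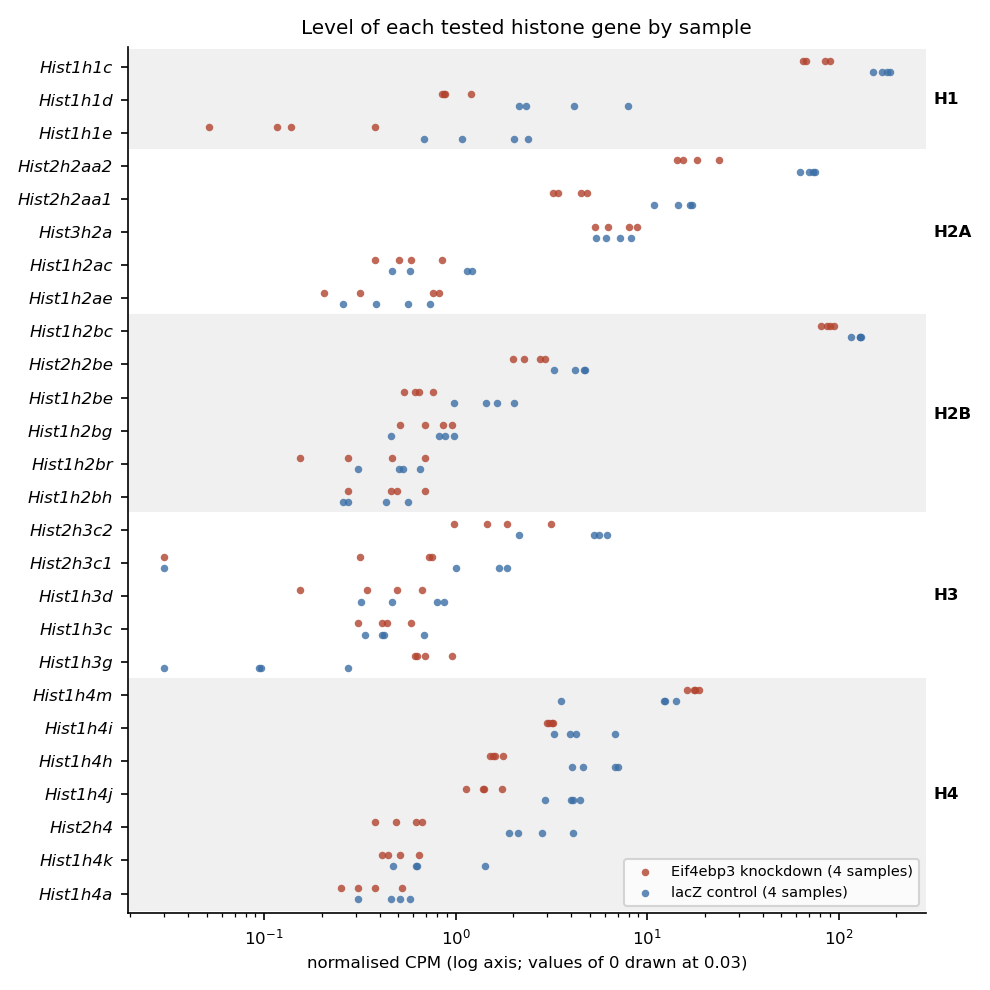
Normalised CPM of the 26 tested histone genes in each of the 8 samples, on a log axis, with knockdown samples above control samples in each row and values of 0 drawn at 0.03. Hist1h2bc and Hist1h1c stand highest, the groups are apart for 14 genes, and the row of Hist1h4m shows 1 control sample at 3.56 CPM below the other 3 at 12.2 to 14.2 CPM.

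Among the core histone genes of this family the H3 genes had the lowest sum, and they moved in both directions. Replication-independent H3 genes are not in that sum. Hist2h3c2 (chr3:96238108-96239127, minus strand), the highest H3 gene, was at 1.45, 1.86, 3.13 and 0.975 CPM in the knockdown samples, against 5.57, 5.28, 6.18 and 2.15 CPM in the control samples. The groups overlapped, since control replicate 4 lay below knockdown replicate 3, yet the gene passed the test (log2 fold change -1.38 ± 0.38, edgeR adjusted p = 0.0100). It did not pass with total-count scaling (-0.80, adjusted p = 0.0668). Its coding sequence is 99.8% identical to that of Hist2h3b, and 8 of its 8 values are not whole. Hist2h3c1 was at 0.316, 0.756, 0.722 and 0 CPM in the knockdown samples, against 0, 1.68, 1.85 and 1.005 CPM in the control samples. With 1 sample at 0 in each group, it had a log2 fold change of -1.36 ± 0.89 (edgeR adjusted p = 0.214).

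Hist1h3g was the 1 member that rose. This H3 gene (chr13:23535422-23535951, plus strand) had 20, 33, 20 and 24 counts in the knockdown samples, against 2, 2, 0 and 6 counts in the control samples. In CPM it was at 0.631, 0.960, 0.688 and 0.616 in the knockdown and 0.0961, 0.0935, 0 and 0.274 in the control, without overlap. The log2 fold change was 2.56 ± 0.52 (edgeR adjusted p = 0.00167), 3.11 with total-count scaling and 3.39 without control replicate 4, the highest control. Hist1h3g encodes the same H3 protein as Hist1h3a, Hist1h3h and Hist1h3i, its coding sequence is 99.3% identical to that of Hist1h3h, and 1 of its 8 values is not whole. Hist1h3c and Hist1h3d, at 0.449 and 0.512 CPM over all samples, had log2 fold changes of -0.09 ± 0.33 and -0.57 ± 0.46 and did not pass the test.

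The make-up of H4 differed between the groups. All 13 H4 genes encode the same protein of 103 residues, with a median coding identity of 93.9% between genes. Hist1h4m (chr13:21811746-21812147, plus strand) was at 18.7, 17.6, 17.7 and 16.1 CPM in the knockdown samples, against 12.3, 12.2, 14.2 and 3.56 CPM in the control samples. The groups did not overlap, but the gene did not pass the test (log2 fold change 0.73 ± 0.30, edgeR adjusted p = 0.0611). It was called higher by DESeq2 (0.72, adjusted p = 0.0364), with total-count scaling (1.32, adjusted p = 0.00203), and with TMM factors when control replicate 4 (0.43) or control replicate 3 (0.90) was left out. Its coding sequence is identical to that of Hist1h4n, and 8 of its 8 deposited values are not whole.

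The other abundant H4 genes were lower. Hist1h4h (chr13:23531050-23531519) was at 1.61, 1.77, 1.51 and 1.56 CPM in the knockdown samples, against 7.06, 4.63, 4.07 and 6.76 CPM in the control samples (log2 fold change -1.80 ± 0.21, edgeR adjusted p = 3.82e-05). Hist1h4j (chr13:21735064-21735837) was at 1.74, 1.13, 1.41 and 1.39 CPM in the knockdown samples, against 3.99, 4.11, 2.93 and 4.43 CPM in the control samples (log2 fold change -1.45 ± 0.20, edgeR adjusted p = 0.000136). Hist2h4, the H4 gene of cluster 2 (chr3:96261682-96263311), was at 0.379, 0.669, 0.619 and 0.487 CPM in the knockdown samples, against 2.11, 4.11, 1.904 and 2.83 CPM in the control samples (log2 fold change -2.34 ± 0.31, edgeR adjusted p = 8.41e-05). None of these 3 overlapped between groups, and all 3 kept their calls with total-count scaling. Hist1h4i (chr13:22040636-22041362) was at 3.19, 3.23, 3.06 and 3.001 CPM in the knockdown samples, against 3.27, 4.25, 3.96 and 6.76 CPM in the control samples. Its call was marginal (log2 fold change -0.55 ± 0.22, edgeR adjusted p = 0.0488), and with total-count scaling the value was 0.0018 (adjusted p = 0.995). The call also went when any 1 sample other than control replicate 1 was left out, at adjusted p from 0.0513 to 0.137 and a value of -0.30 without control replicate 4. Hist1h4a and Hist1h4k had log2 fold changes of -0.35 ± 0.34 and -0.63 ± 0.37 and did not pass the test.

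Within the H4 sum, Hist1h4m made up 69.3, 67.5, 68.7 and 67.4% in the knockdown samples, against 39.1, 38.8, 47.4 and 12.3% in the control samples. The knockdown samples lay close together and the control samples did not. Without Hist1h4m the other 12 genes summed to 8.15 ± 0.297 CPM in the knockdown and 19.9 ± 4.01 CPM in the control, a log2 ratio of -1.29. Control replicate 4 had the lowest Hist1h4m level, 3.56 CPM, and the highest Hist1h4i and Hist1h4k levels, 6.76 and 1.42 CPM. How the counting divided reads between near-identical H4 genes was not tested.

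**Figure D4:**
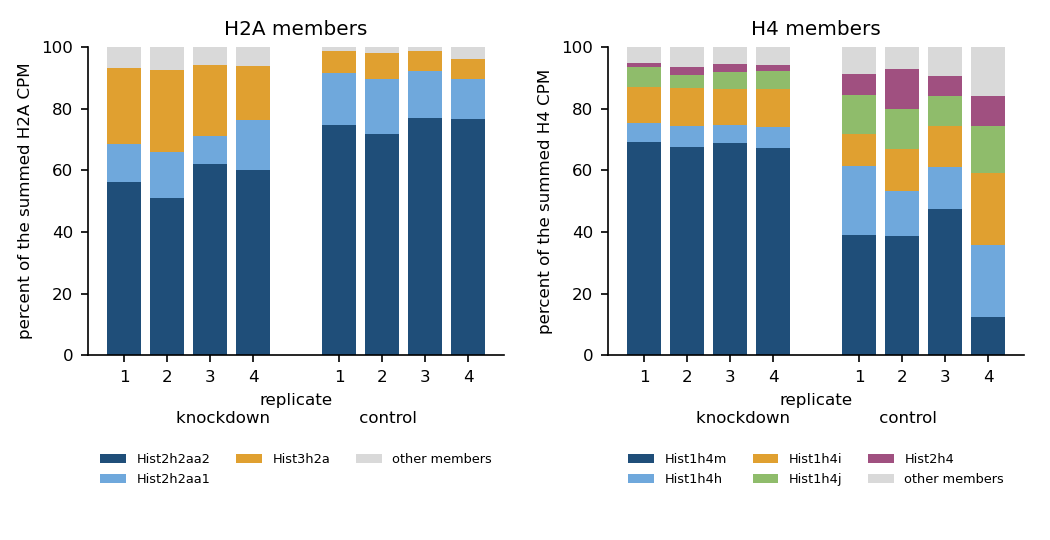
Percent of the summed H2A CPM and of the summed H4 CPM held by named genes in each sample, stacked to 100, with the knockdown replicates left of the control replicates. Hist1h4m holds 67.4 to 69.3% of H4 in the knockdown and 12.3 to 47.4% in the control, and Hist2h2aa1 with Hist2h2aa2 holds 65.9 to 76.3% of H2A in the knockdown and 89.5 to 92.3% in the control.

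By position, cluster 2 on chromosome 3 (chr3:96219865-96270132, 10 genes) had the lowest ratio to the control among the clusters with a tested gene. Of its 6 tested genes 5 fell, and its sum was 27.3 ± 5.22 CPM in the knockdown and 98.03 ± 9.53 CPM in the control, a log2 ratio of -1.85. Cluster 1 lies in separate blocks on chromosome 13. The block at chr13:23531050-23934851 holds 31 genes, of which 6 fell and 1 rose among 14 tested, with sums of 174 ± 15.0 CPM in the knockdown and 317 ± 18.1 CPM in the control. The block at chr13:21715763-22043676 holds 24 genes, of which 2 fell among 5 tested, with sums of 24.3 ± 1.45 CPM in the knockdown and 21.7 ± 2.11 CPM in the control. Hist1h4m lies in that last block. Across all genes tested 27.8% fell and 29.5% rose. Cluster 3 on chromosome 11 summed to 7.28 ± 1.62 CPM in the knockdown and 6.85 ± 1.24 CPM in the control, and the groups overlapped. Its other gene, the H2B gene Hist3h2ba, stayed under the filter at 0.158, 0.0291, 0.275 and 0.180 CPM in the knockdown samples, against 0.0961, 0.187, 0.103 and 0.183 CPM in the control samples. Cluster 4, the single H4 gene Hist4h4 on chromosome 6 (chr6:136801553-136804415), was at 0.138 ± 0.0781 CPM in the knockdown and 0.497 ± 0.302 CPM in the control, with overlapping groups, also under the filter. It had 2, 7, 6 and 3 counts in the knockdown samples, against 4, 7, 17 and 13 counts in the control samples.

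The 43 members under the filter together reached only 3.06 ± 0.458 CPM in the knockdown and 4.78 ± 1.39 CPM in the control, and 19 of the 69 members had fewer than 10 counts over all 8 samples. Hist1h2ag, an H2A gene, had 5, 9, 7 and 8 counts in the knockdown samples, against 0, 1, 1 and 1 counts in the control samples. Hist1h2ap, which encodes the same H2A protein, had 9, 6, 8 and 5 counts in the knockdown samples, against 1, 1, 0 and 0 counts in the control samples. No knockdown sample overlapped a control sample for either gene, and the ratios of normalised rates were 6.02 (95% counting interval 1.87 to 30.9) and 8.72 (2.198 to 75.5). The H4 gene Hist1h4c had 14 counts in all knockdown samples and 60 in all control samples, and the H3 gene Hist1h3f had 8 and 27. Fitted without a filter, Hist1h2ag and Hist1h2ap were called higher and Hist1h4c, Hist1h3f and Hist4h4 lower, and the authors' deposited table marks the same 5 in the same directions. These 5 genes were chosen after their values were seen, and the intervals cover counting error only.

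**Figure D5:**
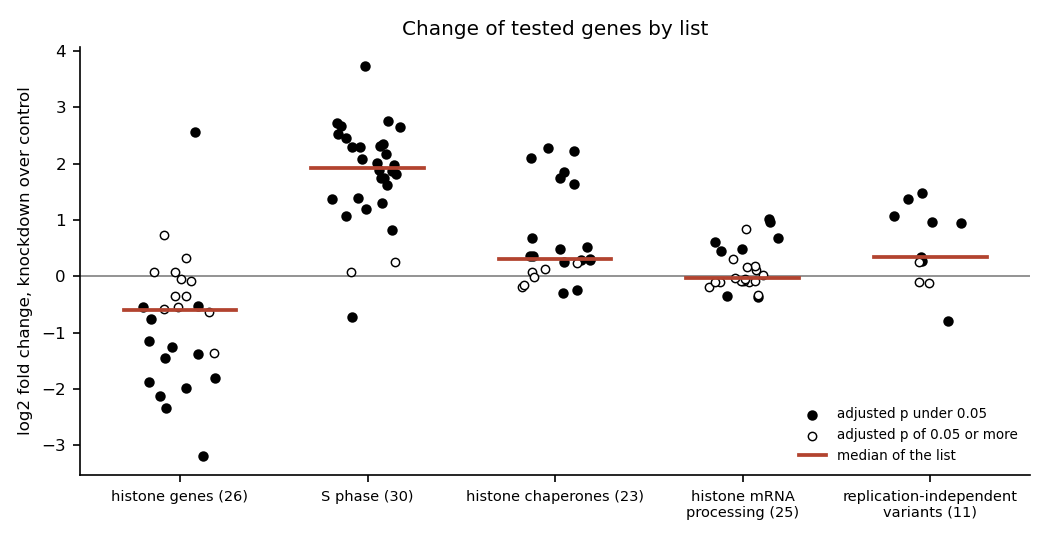
Log2 fold change of knockdown over control, with TMM factors, for the tested histone genes and for tested genes of 4 companion lists, 1 point per gene (filled, adjusted p under 0.05), with the median of each list as a line. The S phase list has its median at 1.93 and the histone genes that passed the filter have theirs at -0.60; with total-count scaling the median of the processing list, at -0.02 here, is 0.55.

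Levels were also set against the annotated 3′ ends, as a description. Per kilobase of annotated gene length, Hist1h2bc (92.8 CPM per kb over all samples), Hist2h2aa2 (83.5) and Hist1h1c (79.2) stood highest, followed by Hist1h4m (34.9), Hist2h2aa1 (16.04), Hist1h4h (7.71) and Hist1h4i (5.28). The 22 members whose annotated transcripts run on for more than 100 bases past the stem-loop had a median level of 0.434 CPM per kb, and 8 of them fell with 0 rising among 15 tested. The 22 members whose longest transcript ends within 100 bases of the stem-loop had a median of 0.198 CPM per kb, and 3 fell with 0 rising among 5 tested. The 25 members without the pattern in the window had a median of 0.0728 CPM per kb. Of their 6 tested genes 2 fell and 1 rose. A poly(A) signal, AATAAA or ATTAAA in the last 50 bases of any coding transcript, was present in 17 members, of which 7 fell among 12 tested. Among the 52 members without it, 6 fell and 1 rose among 14 tested. Across all genes tested 27.8% fell and 29.5% rose. The signal was present in 72.0% of other coding genes, where only the longest coding transcript was searched. Hist1h3g, which rose, was annotated with 95 bases after the stop codon and without the pattern.

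Factors that make and process histone RNA were called in both directions. Of 25 listed factors for histone gene transcription and 3′ processing, all tested, 6 rose and 2 fell, with a median log2 fold change of -0.02. Among all genes tested 29.5% rose and 27.8% fell. Slbp, the stem-loop binding protein, was at 35.1, 34.5, 31.3 and 29.4 CPM in the knockdown samples, against 15.7, 19.0, 16.6 and 15.9 CPM in the control samples. It was higher in every knockdown sample (log2 fold change 0.96 ± 0.09, edgeR adjusted p = 1.12e-05). Eri1, the exonuclease that trims the stem-loop end, rose by 0.61 ± 0.10 and Cstf2, a cleavage factor subunit, by 0.48 ± 0.10 on the log2 scale. Mblac1, a nuclease, Casp8ap2 and Npat, which act at histone gene loci, rose by 1.02, 0.68 and 0.45, and these 3 were named after their values were seen. Yy1, a zinc finger transcription factor, fell by 0.35 and Sympk, a cleavage scaffold named after its value was seen, fell by 0.37, but with total-count scaling both were called higher, at 0.22 and 0.20. That scaling called 24 of the 25 higher and 0 lower, where 63.9% of all genes tested were called higher and 7.72% lower.

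Most listed histone chaperones and enzymes acting on newly made histones rose. Of 23 tested genes, 15 rose and 2 fell, with a median log2 fold change of 0.32, where 29.5% of all genes tested rose and 27.8% fell. With total-count scaling 23 were called higher, beside 63.9% of all genes tested. Hat1, which acetylates new H4, was at 23.5 ± 2.51 CPM in the knockdown and 7.05 ± 0.424 CPM in the control (SD, n = 4 each). Chaf1b, a subunit of the chromatin assembly factor CAF-1, was at 11.1 ± 0.401 CPM in the knockdown and 2.30 ± 0.515 CPM in the control, while Tonsl and Nap1l1 rose by 1.86 and 0.68 on the log2 scale. Ipo4, an importer of histones, and Cabin1, a subunit of the HIRA complex, fell by 0.29 and 0.24 but were called higher with total-count scaling. Both were named after their values were seen.

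Of 13 genes listed as replication-independent histone variants, 11 were tested, of which 7 rose and 1 fell, with a median log2 fold change of 0.33. The shares of all genes tested were 29.5% and 27.8%. H2afx, the variant phosphorylated at DNA breaks, was at 33.4 ± 3.57 CPM in the knockdown and 15.9 ± 1.18 CPM in the control (SD, n = 4 each). H2afz and the centromere variant Cenpa rose by 0.97 and 1.37 on the log2 scale. H1f0, the linker histone typical of non-dividing cells, fell to 117 ± 24.2 CPM in the knockdown, against 204 ± 21.5 CPM in the control (log2 fold change -0.80 ± 0.13, edgeR adjusted p = 0.000481), and was not called with total-count scaling (-0.23, adjusted p = 0.169). Like the 3 tested replication-dependent H1 genes, H1f0 was lower in the knockdown with TMM factors. H1fx, another linker histone of this list, went the other way (log2 fold change 1.47 ± 0.29, edgeR adjusted p = 0.001375, and 2.02 with total-count scaling). It was named after its value was seen.

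Most listed genes of DNA replication and the cell cycle rose. Of 30 listed genes, 27 rose and 1 fell, with a median log2 fold change of 1.93, where 29.5% of all genes tested rose and 27.8% fell. Ccne1, cyclin E1, was at 16.9, 22.7, 18.3 and 16.01 CPM in the knockdown samples, against 1.009, 1.40, 1.18 and 1.96 CPM in the control samples (log2 fold change 3.72 ± 0.20, edgeR adjusted p = 4.16e-07). The replicative helicase gene Mcm6, the ribonucleotide reductase gene Rrm1 and Ccne2 rose by 2.75, 1.38 and 2.35 on the log2 scale. Tk1, thymidine kinase, was the exception that fell (-0.72 ± 0.18, edgeR adjusted p = 0.00573), without a call under total-count scaling (-0.14, adjusted p = 0.492), while Gins1 and E2f8 did not pass the test at 0.26 and 0.07. These 3 were named after their values were seen.

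Summed macrophage markers, T, NK and B cell markers, and stellate cell and cholangiocyte markers were higher in every knockdown sample than in any control sample. The sums of hepatocyte and of red cell precursor markers overlapped between the groups. The part of these cell types in the histone values was not tested. Of 15 hepatocyte markers 12 fell and 0 rose, with summed levels of 72890 to 94910 CPM in the knockdown and 94880 to 122400 CPM in the control. With total-count scaling 9 of them were called lower and 2 higher, beside 7.72% and 63.9% of all genes tested. With TMM factors, which the counts of the other lists use, 29.5% of all genes tested rose and 27.8% fell. Among macrophage markers 16 of 18 rose, with sums of 1837 to 2131 CPM in the knockdown and 727 to 959 CPM in the control. T, NK and B cell markers had 14 of 20 that rose and 1, Cd4, that fell, with sums of 67.6 to 89.0 CPM in the knockdown and 20.6 to 41.7 CPM in the control. For stellate cells and cholangiocytes 10 of 15 markers rose, with sums of 661 to 1069 CPM in the knockdown and 247.5 to 306.5 CPM in the control. Red cell precursor markers had 3 of 10 that rose and 2 that fell, with sums of 602.5 to 771.5 CPM in the knockdown and 501 to 825 CPM in the control. No marker of these 5 lists was at 0 in every sample.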

How the data were processed

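RNA was measured in 4 knockdown and 4 control samples of liver, and columns were assigned to samples by the code in each label. The submitters' processing notes name fastp 0.19.5, Bowtie2 2.2.9, GATK 3.8, SAMtools 1.9 and mm10, and neither they nor the labels say which program aligned or counted reads, or with which annotation and strandedness. Expected counts (estimated counts per gene, not normalised) were deposited by the authors and rounded here to whole numbers; 10.4% of all values and 47.8% of the members' values differed from a whole number (by more than 1e-09), with at least 1 such value in 52 members. With a tolerance of 0.05 these were 8.65%, 41.7% and 49 members. The authors also deposited a comparison table with a fold change (a ratio of knockdown over control), its log2 value and a p-value with its adjusted p-value per gene, per the file headers.

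The whole table was fitted with edgeR 4.0.16 in R 4.3.3 (TMM, filterByExpr, quasi-likelihood test, Benjamini-Hochberg, adjusted p under 0.05), checked on simulated data. The SE of an edgeR log2 fold change was derived from the test, as its absolute value over the square root of the F statistic. TMM factors were 1.147 to 1.265 in the knockdown and 0.7759 to 0.8903 in the control. Alternatives used DESeq2 1.42.0, limma 3.58.1 and other settings. Members were chosen by name, and members, companion lists and tests were chosen with earlier results of these data known. Values by sample are given for the 2 most abundant members of each type, the 8 largest called changes with a mean of at least 0.5 CPM and clusters 3 and 4; Hist1h3g, Hist1h2ag and Hist1h2ap were added after their values were seen. Companion lists give up to 4 called genes of smallest p. Stem-loops come from GENCODE M21 transcripts and promoters from RefSeq GRCm38.p6.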

Additional observations from a re-analysis of the deposited data

Results flagged for a closer look

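In 52 comparisons of 1 sample with the other 3 of its group, 1 for each tested member in each group, 3 samples stood apart by Dixon's criterion (gap to the nearest sample over the range of the group), and chance gives about 1 in 20. Hist1h1d was at 1.20 CPM in knockdown replicate 3, against 0.843 to 0.884 CPM in the other knockdown samples, and stayed below every control sample. Hist1h2bc was at 116 CPM in control replicate 3, against 129 to 131 CPM in the other control samples, and stayed above every knockdown sample. Hist1h4k was at 1.42 CPM in control replicate 4, against 0.468 to 0.624 CPM in the other control samples. That is the control sample with the lowest Hist1h4m level, at 3.56 CPM, and the lowest Eif4ebp3 level of the controls, at 49.3 CPM. Its label code has the letter D, as has that of knockdown replicate 4, while all other samples have the letter C. What the letters stand for is not given in the labels. The fit of the samples with the letter C, given below, leaves out replicate 4 of both groups.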

How the results depend on the processing

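The number of members called lower, 13, was 9 to 15 over all alternatives and 13 in each fit without 1 sample. In 7 of these 8 fits 12 were shared, as Hist1h4i left and Hist1h4c entered. Without the filter 12 of 15 were shared. The 1 member called higher, Hist1h3g, was called under each alternative that was run. The number called higher was 2 with DESeq2, 2 with limma-voom, 2 with the samples whose label code has the letter C, 3 with total-count scaling, 4 without the low-count filter, and 1 to 2 when 1 sample was left out. The second member was Hist1h4m in each, joined by Hist3h2a with total-count scaling and by Hist1h2ag and Hist1h2ap without the filter. The labels do not say whether equal replicate numbers pair samples of the groups. Between samples of the same number, correlations of deviations from the group means were -0.20, -0.03, 0.06 and 0.18, which cannot decide it. A fit with the replicate number as a block gave 2 members higher and 12 lower. Total-count scaling moved the counts over all genes to 9831 higher and 1187 lower, turned Hist1h2bc to 0.039 and Hist1h4i to 0.0018, and gave log2 ratios of sums of -0.61 for H1, -1.03 for H2A, 0.0364 for H2B, -0.33 for H3 and 0.32 for H4. Without the most abundant gene of each type the ratios with TMM factors were -2.10 for H1, -0.84 for H2A, -0.44 for H3 and -1.29 for H4, with no H2B value given. The H2A value still includes Hist2h2aa1, whose coding sequence is identical to that of Hist2h2aa2, the gene left out. By cluster, the H2A log2 ratios with TMM factors were 0.03 for cluster 1, -1.96 for cluster 2 and 0.085 for cluster 3. Genes with whole counts in every sample gave -0.55 for H1, -0.73 for H2A, -0.71 for H2B and -2.12 for H4, and no H3 gene qualified. These hold only 41 knockdown and 38 control counts for H1, without Hist1h1c, and 3 and 3 for H2A, so they do not check the full sums. The cause of these differences between settings was not tested. Near-identical coding sequences limit how far single H2A, H2B, H3 and H4 genes can be separated, and 43 members have too few counts for a test with the filter.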
